A study of Mus musculus with 27 samples.

Results

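Foxc1, Foxc2, Foxd1, Foxf1, Foxf2, Foxp1, Foxp2, Foxp4, Nr2f1 and Nr2f2 are transcription factor genes that are known from embryonic mesenchyme, and their mRNA levels were examined across a set of mouse limb bud organoids and embryonic tissues. They were chosen by name, as 10 of the 23279 genes listed, and the table lists Foxf1 under its synonym Foxf1a. RNA-seq was done on 9 groups of 3 libraries each. ES–FLB and ES–HLB were forelimb bud and hindlimb bud mesenchyme that was grown from aggregates of mouse ES cells and isolated on day 9 by FACS for Hand2::GFP. Both came from the line EB5 Hand2::GFP +/-, in which 1 allele of the limb mesenchyme gene Hand2 carries the reporter. Up to day 5 both were cultured with matrigel and BMP4, and later LDN193189, which inhibits BMP signals, and Wnt3 were added in steps, for which the labels and the methods give different days. From day 6.5, according to the methods, both were also given hydrocortisone and methylcellulose. They differed in that ES–FLB was given retinoic acid (RA) on days 5 to 6 and ES–HLB an RA antagonist on days 6 to 6.5.

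The embryonic groups were dissected from untreated Slc:ICR embryos and, according to the methods, were not sorted. They were forelimb buds (FLB) and hindlimb buds (HLB) labelled E10.0, here called early, and FLB, HLB, tail bud (TB), heart (Ca) and branchial arch (BA) at E10.5. The study's text gives an earlier stage for the early FLB than for the early HLB, so limb type and stage cannot be told apart between those groups. In unsorted tissue, fewer cells of a type and less RNA per cell cannot be told apart either. One of the E10.5 HLB libraries listed 99.6 to 99.9% of the expressed genes of chromosomes 5, 6, 7, 8, 9 and X at 0, including Foxc2, Foxf1, Foxp1, Foxp2 and Nr2f2. It was left out, which leaves 26 libraries and n = 2 for the E10.5 HLB and n = 3 for every other group.

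Forkhead factors bind DNA through a winged-helix domain. FoxC factors act in paraxial and head mesoderm, in vessels and in the outflow tract of the heart, FoxD1 in kidney stroma and facial mesenchyme, and FoxF factors in splanchnic and facial mesenchyme, where they are known as targets of Hedgehog signals. FoxP factors are repressors that form dimers with each other through a leucine zipper, and the Nr2f genes encode the orphan nuclear receptors COUP-TFI and COUP-TFII, which can oppose retinoid receptors on DNA.

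Foxc1, Foxd1 and Foxf2 lie on the same chromosome and were called higher in ES–LB mesenchyme in all 4 comparisons with limb buds given below, so the stretch of 250 bases before the start of these 3 genes is shown. The sequences are from RefSeq on GRCm38.p6, plus strand, 5′ to 3′, at chr13:31806396-31806645 for Foxc1, chr13:98353995-98354244 for Foxd1 and chr13:31625566-31625815 for Foxf2. Capitals mark each CCAAT (the CCAAT box) and each GGGCGG (the GC box) on either strand, which do not overlap each other here.
Foxc1: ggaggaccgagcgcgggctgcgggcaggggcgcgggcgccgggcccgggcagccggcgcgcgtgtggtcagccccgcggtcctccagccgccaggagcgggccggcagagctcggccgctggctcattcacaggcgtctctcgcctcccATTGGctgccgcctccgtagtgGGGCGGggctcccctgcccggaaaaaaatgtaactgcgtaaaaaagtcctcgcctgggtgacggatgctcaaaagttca
Foxd1: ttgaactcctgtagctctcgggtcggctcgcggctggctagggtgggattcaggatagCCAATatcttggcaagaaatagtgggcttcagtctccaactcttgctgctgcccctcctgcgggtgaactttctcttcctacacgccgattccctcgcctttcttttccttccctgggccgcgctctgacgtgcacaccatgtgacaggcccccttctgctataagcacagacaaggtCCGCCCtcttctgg
Foxf2: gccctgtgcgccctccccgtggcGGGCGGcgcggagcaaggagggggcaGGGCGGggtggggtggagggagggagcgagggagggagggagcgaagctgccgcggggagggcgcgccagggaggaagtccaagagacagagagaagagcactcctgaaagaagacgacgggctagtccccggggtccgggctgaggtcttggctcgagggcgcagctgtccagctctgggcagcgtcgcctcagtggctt
Foxf2 held GGGCGG at 2 places and no CCAAT, while Foxc1 and Foxd1 each held 1 of either motif in these 250 bases. Among all 32851 promoter windows of 300 bases, 37.4% held CCAAT and 35.7% held GGGCGG. Neither TATAAA, in 13.6% of all windows, nor the GLI motif TGGGTGGTC, in 0.253%, nor the retinoid half-site AGGTCA, in 16.3%, was found on either strand in the window of 300 bases of any of these 3 genes. RefSeq promoters were given for 7 of the 10 genes, and not for Foxc2, Foxf1 and Foxp2.

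Depth, as read from the spacing of low values, was 19642197 to 22142180 reads in the early limb bud libraries, 5543752 to 5908846 in the E10.5 limb buds and 6569904 to 8541914 in the others. A level of 3 reads was thus worth 0.135 to 0.541 CPM, the read count scaled to the library's total. All levels are CPM after TMM scaling between libraries, which equalizes the bulk of genes. Markers were examined for heart, tail bud and limb, and no list was made for branchial arch. The 10 heart muscle genes summed to 25803 CPM or more in every Ca library and to 110.3 or less elsewhere, the 10 paraxial mesoderm genes to 664 to 680 CPM in TB, and the 14 limb mesenchyme genes to 2189 to 2395 CPM in limb buds and 2795 to 3148 in ES–LB mesenchyme. In BA the limb mesenchyme genes summed to 2037 to 2149 CPM as well. These 14 genes include Hand2, whose reporter was used for sorting, and they did not move together. By the tests given below, ES–FLB was higher in 6 and lower in 6 against the E10.5 FLB, and ES–HLB higher in 6 and lower in 7 against the E10.5 HLB. Against the early buds ES–FLB was higher in 7 and lower in 6, and ES–HLB higher in 5 and lower in 6. ES–LB mesenchyme differed from the tissues in its other cells. Its 10 endothelial genes summed to 33.8 to 58.7 CPM against 379 to 594 in limb buds, and its 10 pluripotency genes to 112 to 147 CPM against 2.93 to 8.83. Klf4, which is also expressed outside pluripotent cells, had the highest level among the pluripotency genes in both ES–LB types, with 92.2 ± 5.45 CPM in ES–FLB and 36.8 ± 1.98 in ES–HLB (SD, n = 3). The part of these cells in the results below was not tested.

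None of the 10 genes had its highest mean level in a limb bud, and the share of all genes for which this holds was not counted. Foxc1, Foxc2 and Foxd1 were highest in TB, Foxp1, Foxp4 and Nr2f1 in BA, and Foxf1, Foxf2, Foxp2 and Nr2f2 in ES–FLB, although for Foxd1 the libraries of TB and BA overlapped, and for both FoxF genes those of ES–FLB and BA did. The spread between groups was widest for Foxd1, whose highest and lowest group means were 5.95 apart on the log2 scale, and narrowest for Foxp4, at 1.09. Per kilobase of exon Foxp4 ranked first in 9 of the 9 groups, with 62.4 ± 5.62 CPM per kb in BA and 37.9 ± 1.03 in the E10.5 FLB (SD, n = 3), although Nr2f2, at 37.3 ± 0.438, lay within the spread of Foxp4 (37.6 ± 2.79) in ES–FLB and ranked first there when the longest transcript set the length. In the E10.5 limb buds Nr2f2 and Nr2f1 came next, and the FoxF genes and Foxd1 were last, at 0.0356 to 0.306 CPM per kb.

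**Figure D1:**
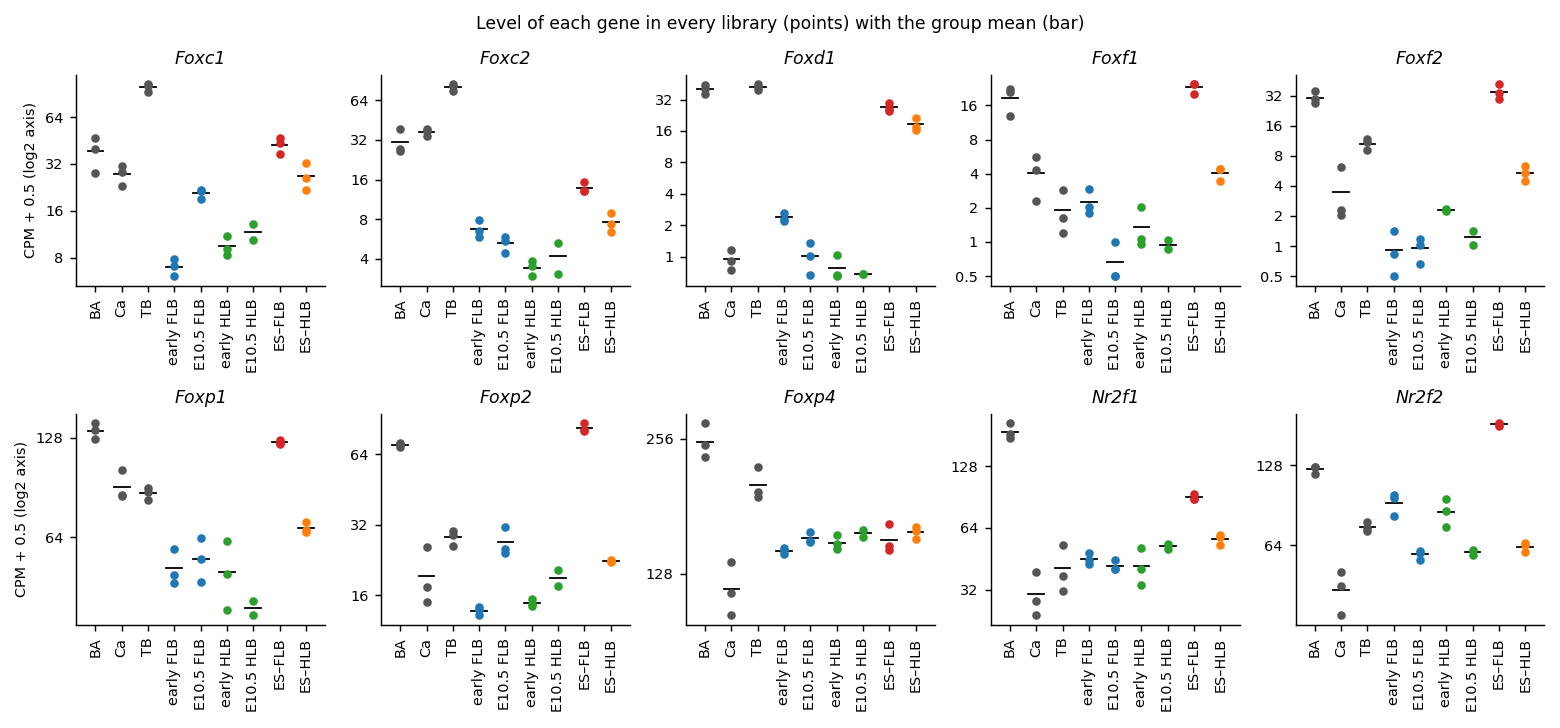
Level of each gene in every library, as CPM + 0.5 on a log2 axis that differs between panels. Points are libraries and bars group means. The FoxF genes and Foxd1 lie near the bottom of their axes in the limb buds, at 2.42 CPM or less, and Foxp4 varies least.

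Levels differed between tissues of the E10.5 embryo. Genes were tested with limma and called at an adjusted p below 0.05, or below 0.001 between stages and between ES–LB mesenchyme and limb bud. Against the mean of the E10.5 FLB and HLB, BA was higher for 10 of the 10 genes. Of all genes tested 35.0% were called, 2094 higher and 2465 lower in BA. Every BA library lay above every E10.5 limb bud library for each of the 10 genes. The share of all genes with such a separation was not counted. Foxd1, Foxf1 and Foxf2 passed the filter on low values through BA alone, so that they could only be tested because they differed. TB was higher for 8 of the 9 genes tested (48.9% of all genes called, 3056 higher and 3379 lower). Nr2f1 was not called, but was called lower in TB when replicate 1 of TB was left out (log2 fold change -0.44, adjusted p = 0.026). Foxd1 and Foxf2 passed the filter there through TB alone. In Ca, where 80.4% of all genes were called, 5 of 9 were higher (Foxc1, Foxc2, Foxf1, Foxf2, Foxp1) and 4 lower (Foxp2, Foxp4, Nr2f1, Nr2f2). Foxf1 and Foxf2 passed the filter there through Ca alone. The call of Foxp2 in Ca was lost without either of 2 Ca libraries (replicates 1 and 2), without replicate 3 of the E10.5 FLB or without replicate 1 of the E10.5 HLB. It was also lost in limma without its variance trend and robust setting (adjusted p = 0.057). The same held with only the groups compared in the fit (adjusted p = 0.18) and with the incomplete E10.5 HLB library kept (0.058). Foxp2 lost its call in TB without replicate 1 or 3 of TB or replicate 3 of the E10.5 HLB. Without replicate 3 of TB, 7 genes could be tested and 5 were called, since Foxd1 and Foxf2 then reached the filter in too few libraries.

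FoxC genes, which act in somites and head mesenchyme, were high in TB and low in limb buds. Foxc1 (chr13:31806633-31812476, GRCm38, plus strand, a gene of 1 exon) was listed at 104, 93.2 and 101 CPM in TB, 27.6, 39.7 and 46.8 in BA and 28, 22.7 and 30.7 in Ca. Its limb bud libraries lay lower, at 7.33, 5.57 and 6.57 CPM in the early FLB, 7.76, 8.58 and 10.52 in the early HLB, 18.5, 21 and 21.3 in the E10.5 FLB and 9.89 and 12.6 in the E10.5 HLB. With stage, Foxc1 rose by 1.58 ± 0.13 (log2, SE) from the early to the E10.5 FLB (limma, adjusted p = 5.4e-09), and the FLB libraries of the stages did not overlap. At E10.5 Foxc1 was lower in HLB than in FLB (log2 fold change -0.83 ± 0.14, SE, adjusted p = 7.1e-06), whereas in the early buds the difference was 0.43 in the other direction with an adjusted p of 0.055, and was called without replicate 1 of the early HLB (adjusted p = 0.027) or with CPM as deposited (0.038). ES–FLB had 36.7, 43 and 46.6 CPM and ES–HLB 25.4, 21.3 and 31.8, so that ES–FLB lay above every limb bud library and ES–HLB overlapped by its lowest library with the E10.5 FLB.

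Foxc2 (chr8:121116171-121118895, plus strand, 1 exon) had 81.4, 74.5 and 84.4 CPM in TB, 37.9, 34 and 36.7 in Ca and 25.7, 26.6 and 38.1 in BA. In limb buds it lay between 2.45 and 7.44 CPM, and the difference between the FLB stages was -0.37 and not called (adjusted p = 0.068). Its early HLB libraries (2.45, 3.31 and 3 CPM) lay below those of the early FLB (7.44, 6.04 and 5.33), a difference of -0.98 ± 0.16 (log2, SE, adjusted p = 0.0019). ES–FLB had 12.5, 12.5 and 14.8 CPM and ES–HLB 6.86, 5.85 and 8.44. Of the 10 genes, Foxc2 was the one for which the mean of ES–LB mesenchyme lay farthest below TB, by a log2 fold change of -2.99 ± 0.15 (adjusted p = 1.2e-17).

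The ratio of the FoxC paralogs differed by group. Foxc1 over Foxc2 within a library was 2.00 ± 0.25 (log2, SD, n = 3) in the E10.5 FLB and 1.82 ± 0.04 in ES–HLB, near equality in the early FLB (0.05 ± 0.20), and turned towards Foxc2 in Ca (-0.42 ± 0.16), where all 3 libraries were below 0. These are ratios of CPM, and since the Foxc1 exon is longer, Foxc2 exceeded Foxc1 per kilobase in TB, at 29.4 ± 1.86 against 17.0 ± 0.963. The exon length is that of GENCODE, and RefSeq ends Foxc1 earlier, so the size of this difference depends on the annotation.

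Foxd1 (chr13:98354242-98359305, plus strand, 1 exon) was at 2.14 CPM or less in every limb bud library and higher in ES–LB mesenchyme. It had 41.3, 38.9 and 44.4 CPM in TB and 40, 36 and 43.7 in BA, but 0.255, 0.42 and 0.672 in Ca. In the E10.5 limb buds it was listed at 0.849, 0.164 and 0.516 CPM in FLB and 0.183 and 0.177 in HLB, which amounts to 11 reads over 5 libraries. From these reads BA exceeded the E10.5 limb buds by 104.8-fold, with a counting interval (95%, exact) of 58.3 to 211. Early FLB libraries were higher, at 1.81, 2.14 and 1.72 CPM, than those of the early HLB, at 0.153, 0.543 and 0.17, and did not overlap with them (log2 fold change -1.63 ± 0.24, SE, adjusted p = 0.00084). The counts behind this were 107 reads in the early FLB and 16 in the early HLB, and Foxd1 passed the filter there through the early FLB alone.

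ES–FLB had 24.5, 25.5 and 29.4 CPM of Foxd1 and ES–HLB 15.8, 17.1 and 21, above every limb bud and Ca library and below every TB and BA library. Over the E10.5 FLB, with 9 reads, the ratio of ES–FLB was 52.4 (27.4 to 115), and over the early HLB, with 16 reads, that of ES–HLB was 62.9 (38.3 to 111). Against the E10.5 HLB, with 2 reads, it was 100.4 (27.6 to 832). Between the ES–LB types the difference was small, at -0.55 ± 0.11 for ES–HLB against ES–FLB (log2, SE, adjusted p = 0.00015), and it was not called when the spread was taken from all 26 libraries (adjusted p = 0.059). Of the 7 listed genes of intermediate mesoderm and kidney stroma, 4 were at 1 CPM or more in ES–FLB, 5 in ES–HLB and 3 or 4 in each limb bud group. Their sums were 162 to 187 CPM in ES–FLB and 114 to 126 in ES–HLB, against 24.6 to 72.8 in limb buds and 170 to 172 in BA. Osr1 was the highest of the 7 in ES–FLB (74.7 CPM), in ES–HLB (52.8) and also in the E10.5 FLB (27.5). The 10 neural genes summed to 52.7 to 79.9 CPM in ES–LB mesenchyme and 21.8 to 116 in limb buds. The part of these cells in the level of Foxd1 was not tested.

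FoxF genes, which act in gut and facial mesenchyme, were high in ES–FLB and BA and low elsewhere. Foxf1 (chr8:121084386-121088144, plus strand) had 24.2, 19.7 and 24 CPM in ES–FLB and 12.5, 20.3 and 21.7 in BA. In ES–HLB it had 3.87, 2.93 and 3.87 CPM, in Ca 1.79, 3.78 and 5.11, and in TB 2.36, 0.695 and 1.14. Early FLB libraries had 1.54, 1.3 and 2.42 CPM and the early HLB 0.459, 1.52 and 0.566. In the E10.5 FLB 2 of 3 libraries listed it at 0 and the other at 0.493 CPM (3 reads), and the E10.5 HLB had 0.366 and 0.531. Foxf1 was thus lower in the E10.5 than in the early FLB (log2 fold change -1.81 ± 0.32, SE, adjusted p = 7.5e-05). This call was lost in limma without its variance trend and robust setting (adjusted p = 0.0032). Foxf1 could only be tested there because it passed the filter through the early FLB alone.

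Foxf2 (chr13:31625816-31631403, plus strand) had 28.9, 33.5 and 41.1 CPM in ES–FLB, 26.3, 29 and 34.8 in BA and 10.4, 8.69 and 11.2 in TB. ES–HLB had 3.99, 4.88 and 5.86 CPM and Ca 1.79, 1.54 and 5.65. Its limb bud libraries lay between 0 and 1.84 CPM. Early HLB (1.84, 1.74 and 1.81) exceeded early FLB (0.903, 0 and 0.323) with no overlap (log2 fold change 1.46 ± 0.33, SE, adjusted p = 0.011), but the call was lost with a pseudocount of 0.1 (adjusted p = 0.071). Foxf2 passed the filter in this comparison through the early HLB alone. Foxf1 was not called there (-0.79, adjusted p = 0.091) unless replicate 2 of the early HLB was left out (adjusted p = 0.013). Foxf2 was the only one of the 10 genes called higher in the early HLB.

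From ES–FLB to ES–HLB Foxf1 fell by 2.51 ± 0.14 and Foxf2 fell by 2.69 ± 0.14 on the log2 scale (SE, adjusted p = 6.3e-15 and 1.5e-15), the largest differences among the 10 genes, and no libraries overlapped. Against the limb buds, ES–FLB exceeded the E10.5 FLB in Foxf1 by a ratio of 134 (45.8 to 654, on 3 reads) and in Foxf2 by 76.7 (38.8 to 178, on 8 reads). ES–HLB exceeded the E10.5 HLB by smaller ratios, 7.96 (3.28 to 25.1) in Foxf1 and 6.84 (3.36 to 16.2) in Foxf2. Of the 9 endoderm genes, 8 were at 1 CPM or more in both ES–LB types and 2 in the E10.5 limb buds. Their sums overlapped between ES–FLB (79.8 to 101 CPM) and ES–HLB (84.5 to 104) and lay above those of the E10.5 limb buds (26.8 to 39.2), and their part in the FoxF levels was not tested.

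Genes beside Foxf1 were compared with it, since Foxf1 and Foxc2 lie 28017 bases apart on chromosome 8. The lncRNA Fendrr, 1276 bases from Foxf1, had 8.68 ± 1.03 CPM in ES–FLB, 4.23 ± 1.44 in BA and 0.890 ± 0.0790 in ES–HLB (SD, n = 3), and 0.231 or less on average in each limb bud group. The forkhead gene Foxl1, 8790 bases beyond Foxc2, had 17.3 ± 5.57 CPM in ES–FLB, 7.48 ± 1.66 in BA, 5.61 ± 0.298 in TB and 2.78 ± 0.251 in ES–HLB. Fendrr fell by 2.72 ± 0.20 and Foxl1 fell by 2.39 ± 0.18 from ES–FLB to ES–HLB (log2, SE, limma, adjusted p = 3.2e-12 and 7e-12). Fendrr passed the filter there through ES–FLB alone, so that it could only be tested because it differed. Mthfsd, between Foxf1 and Foxc2, differed by -0.03 ± 0.08 and was not called (adjusted p = 0.86). Foxc2 lies between Foxf1 and Foxl1 and had another order of groups, with TB and Ca at the top. The annotation holds a further gene model, Gm20388, that overlaps both Foxf1 and Foxc2 on the same strand, and how reads shared with it were counted is not given in the sources used here.

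**Figure D2:**
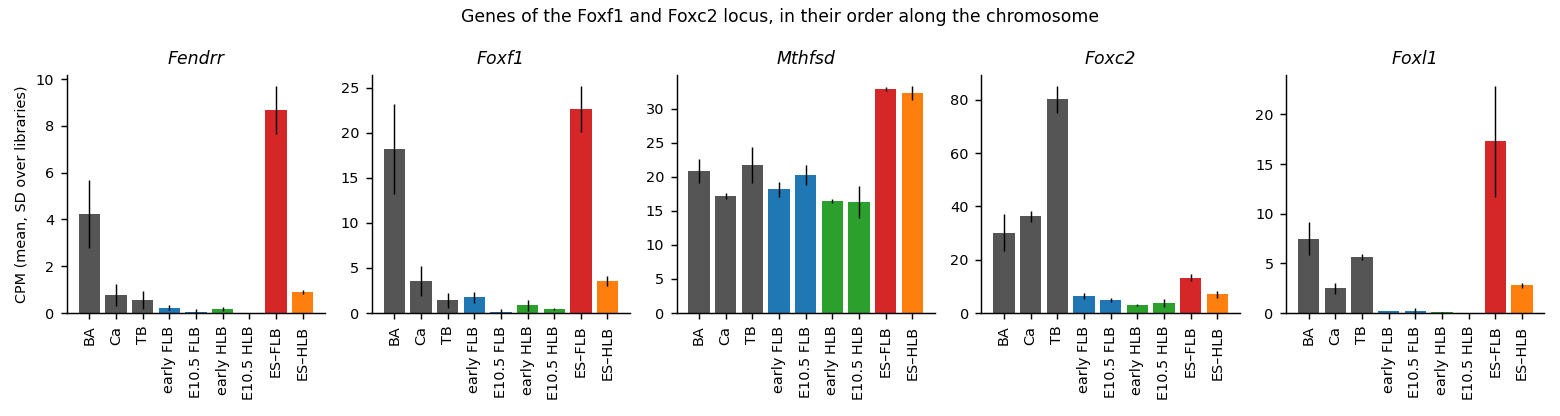
Mean CPM per group of 5 genes of the Foxf1 and Foxc2 locus, in their order along the chromosome, with bars from 0 and lines of 1 SD over the libraries (n = 2 for the E10.5 HLB, otherwise 3). Fendrr, Foxf1 and Foxl1 are highest in ES–FLB, Foxc2 in TB, and Mthfsd lies between 16.3 and 32.9 CPM in all groups.

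FoxP genes were expressed in all groups. Foxp1 (chr6:98925338-99522721, minus strand), known for its part in limb-innervating motor neurons, had 127, 141 and 134 CPM in BA and 122, 123 and 126 in ES–FLB. It had 70.8, 67 and 65.9 CPM in ES–HLB, 84.9 to 102 in Ca and 82.6 to 89.9 in TB. Limb bud libraries lay between 36.6 and 63, and the stages and the early limb types overlapped. In the E10.5 HLB (36.6 and 40.6) it was below the E10.5 FLB (54.5, 46.5 and 63) by a log2 fold change of -0.49 ± 0.10 (SE, adjusted p = 0.0001). This call and that of Foxp2 were lost in limma without its variance trend and robust setting (adjusted p of 0.10 each). ES–FLB lay above all limb bud libraries and exceeded the E10.5 FLB by 1.18 ± 0.08 (adjusted p = 4.5e-10), and ES–HLB the E10.5 HLB by 0.81 ± 0.08 (adjusted p = 6.3e-11).

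Foxp2 (chr6:14901349-15441977, plus strand), known for its part in speech and motor circuits, was highest in ES–FLB, at 80.8, 86.2 and 80 CPM, and next in BA, at 70.8, 68.5 and 70.6, with no overlap between them. ES–HLB had 21.8, 21.9 and 22.1 CPM, TB 25.4 to 29.7 and Ca 14.4 to 25.3. In the FLB it rose with stage, from 12.6, 13.3 and 13.8 CPM to 24.8, 23.7 and 31 (log2 fold change 0.96 ± 0.11, SE, adjusted p = 4.1e-07). The E10.5 HLB, with 20 and 17 CPM, was lower than the E10.5 FLB by -0.50 ± 0.12 (adjusted p = 0.0016). Between the ES–LB types Foxp2 fell by 1.88 ± 0.07 towards ES–HLB (adjusted p = 2.9e-19), so that ES–FLB exceeded the E10.5 FLB by 1.63 ± 0.08 (adjusted p = 1.5e-15), whereas ES–HLB differed from the E10.5 HLB by 0.25, with a 95% interval of 0.00 to 0.49, and was not called.

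Foxp4 (chr17:47867133-47924645, minus strand) varied least. It had 247, 232 and 277 CPM in BA, 221, 190 and 194 in TB and 103, 116 and 135 in Ca, and between 141 and 165 in the limb buds and ES–LB mesenchyme alike. It was not called in any of the 4 comparisons of ES–LB mesenchyme with limb buds. The 95% interval of the log2 difference was -0.12 to 0.09 for ES–FLB and -0.11 to 0.12 for ES–HLB against E10.5. With CPM as deposited, Foxp4 was called higher in ES–FLB than in the early FLB (0.39) and in ES–HLB than in the early HLB (0.33), comparisons in which that scaling moves the median of all genes by 0.31 and 0.25.

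Nr2f genes set BA and ES–FLB apart in different ways. Nr2f1 (chr13:78188973-78199757, minus strand) had 183, 174 and 206 CPM in BA, above every other library, and 87.8, 88.2 and 93.5 in ES–FLB. It had 57, 52.3 and 58.5 CPM in ES–HLB, and the limb buds lay between 33.1 and 53.1. TB (52.5, 31.2 and 36.9) was not called against the E10.5 limb buds. The E10.5 HLB (50 and 53.1) was above the E10.5 FLB (39.9, 39.9 and 43.9) by 0.32 ± 0.09 (log2, SE, adjusted p = 0.0046). This call was lost without replicate 3 of the E10.5 HLB (adjusted p = 0.066). It was also lost in limma without its variance trend and robust setting (0.073) and with the spread taken from all 26 libraries (0.26). In the early buds Nr2f1 was not called (-0.14) unless replicate 1 of the early HLB was left out (-0.29, adjusted p = 0.035). Nr2f1 was the only one of the 10 genes called higher in the E10.5 HLB.

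Nr2f2 (chr7:70351944-70366735, minus strand) was highest in ES–FLB, at 182, 179 and 183 CPM, followed by BA at 119, 126 and 126. In ES–HLB it had 63.7, 59.9 and 64.9 CPM, close to the E10.5 FLB (60.6, 56.1 and 59.6) and HLB (58.4 and 61.3). The early FLB (95.7, 82.1 and 98.2) and early HLB (74.4, 95.2 and 86) were higher than the E10.5 buds, with no overlap in either limb type. The fall with stage was called in FLB (log2 fold change -0.64 ± 0.07, SE, adjusted p = 2.6e-07) and missed the threshold of 0.001 in HLB (-0.50 ± 0.09, adjusted p = 0.0032), which it passed without replicate 1 of the early HLB (adjusted p = 8.7e-05). In ES–HLB Nr2f2 differed from the E10.5 HLB by 0.07, with a 95% interval of -0.09 to 0.23, and was lower than in the early HLB by -0.43 ± 0.08 (adjusted p = 0.00021). That last call was lost without replicate 3 of the early HLB or without any 1 of the ES–HLB libraries, and with CPM as deposited, where it was -0.18 (adjusted p = 0.039). Nr2f1 overlaps the antisense gene A830082K12Rik, and Nr2f2 overlaps B130024G19Rik on the opposite strand over 1826 bases. The libraries were stranded, but the strand setting of the counting is not given in the sources used here.

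The balance of Nr2f1 and Nr2f2 in CPM turned over in BA. Nr2f1 over Nr2f2 was 0.60 ± 0.12 there (log2 ratio, SD, n = 3) and below 0 in every library of the other 8 groups. It was -1.01 ± 0.04 in ES–FLB and -1.03 ± 0.16 in the early FLB, but -0.17 ± 0.02 in ES–HLB and -0.21 ± 0.01 in the E10.5 HLB (n = 2). Between these genes the order depends on length, since by the longest transcript Nr2f1 exceeded Nr2f2 in the E10.5 HLB (16.1 against 14.2 CPM per kb) and in ES–HLB (17.4 against 14.9) too. Foxp1 over Foxp2 was lowest in ES–FLB (0.58 ± 0.07) and higher in ES–HLB (1.61 ± 0.06), and it lay between 0.93 and 2.27 in the other groups.

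**Figure D3:**
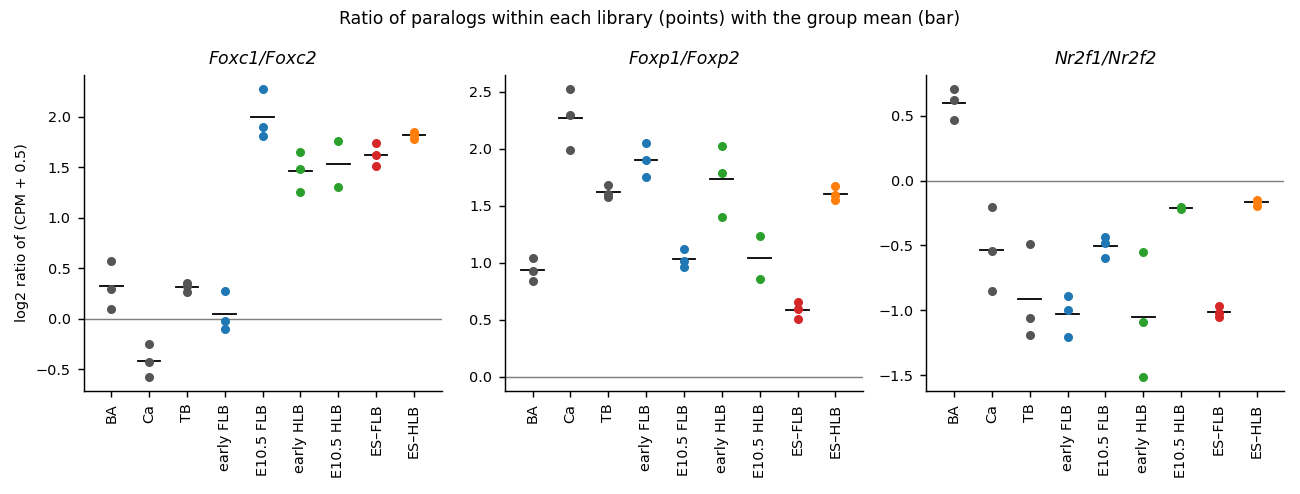
Log2 ratio of paralogs within each library (CPM + 0.5), points for libraries and bars for group means, with a grey line at equality. Foxc1/Foxc2 falls below 0 in Ca and Nr2f1/Nr2f2 rises above 0 only in BA, and Foxp1/Foxp2 is lowest in ES–FLB.

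The limb types were then compared in the embryo and in culture. In the early buds 3 of 10 genes were called (20.1% of all genes), with Foxc2 and Foxd1 lower and Foxf2 higher in HLB. Foxd1 passed the filter there through the FLB alone and Foxf2 through the HLB alone. At E10.5 4 of the 7 genes tested were called (26.1% of all genes), with Foxc1, Foxp1 and Foxp2 lower and Nr2f1 higher in HLB, while Foxd1, Foxf1 and Foxf2 were too low to be tested. In ES–LB mesenchyme 9 of 10 were called, where 25.1% of all genes were (1671 higher and 1613 lower), and all 9 were lower in ES–HLB. The median over the 10 genes was -0.87 (log2) against 0.00 over all genes tested, and for these 9 genes every ES–FLB library lay above every ES–HLB library. How many of all genes separate in this way was not counted. Foxp4 differed by 0.06, with a 95% interval of -0.05 to 0.16. The differences were -1.52 ± 0.05 for Nr2f2 (SE, adjusted p = 2.5e-20), -0.86 ± 0.05 for Foxp1 (adjusted p = 7.5e-14) and -0.68 ± 0.06 for Nr2f1 (adjusted p = 2.6e-10). Markers of other cells moved with the ES–LB types too. The 8 erythroid genes summed to 5.72 to 8.55 CPM in ES–FLB and 88.7 to 167 in ES–HLB, the 10 surface ectoderm genes to 117 to 171 and 226 to 238, and the 10 endothelial genes to 33.8 to 36.2 and 54.7 to 58.7. Of the 10 pluripotency genes 8 were higher and 1, Klf4, lower in ES–HLB (median 1.83, log2), with sums of 112 to 118 and 115 to 147 CPM. The part of these cells in the differences was not tested.

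The difference between culture and embryo was itself tested as an interaction with the early limb buds as the embryonic pair. It was called for 8 of 10 genes, where 22.6% of all genes were called. For 7 of them the change from forelimb to hindlimb type was more negative in culture, by -4.16 ± 0.39 for Foxf2 (SE, adjusted p = 1.8e-06), -1.99 ± 0.11 for Foxp2 (adjusted p = 9e-11), -1.72 ± 0.34 for Foxf1 (adjusted p = 0.0012) and -1.41 ± 0.11 for Nr2f2 (adjusted p = 5.8e-08). Foxc1 (-1.12), Foxp1 (-0.80) and Nr2f1 (-0.54) followed. The call of Nr2f1 was lost without any of 5 libraries (replicates 2 and 3 of the early FLB, replicate 3 of ES–FLB, replicates 1 and 2 of ES–HLB). It was also lost in limma without its variance trend and robust setting (adjusted p = 0.057) and with all 26 libraries in 1 model (0.14). The call of Foxp1 was lost without replicate 1 of the early FLB. Foxd1 went the other way (1.08 ± 0.25, adjusted p = 0.0036), its early FLB lying above its early HLB by more than ES–FLB above ES–HLB, but with a pseudocount of 2 it was 0.25 and not called (adjusted p = 0.32). With the E10.5 buds as the embryonic pair, Foxc1 was 0.15 and Foxd1 -0.04, and neither was called, so that for these genes the result depends on the stage chosen.

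**Figure D4:**
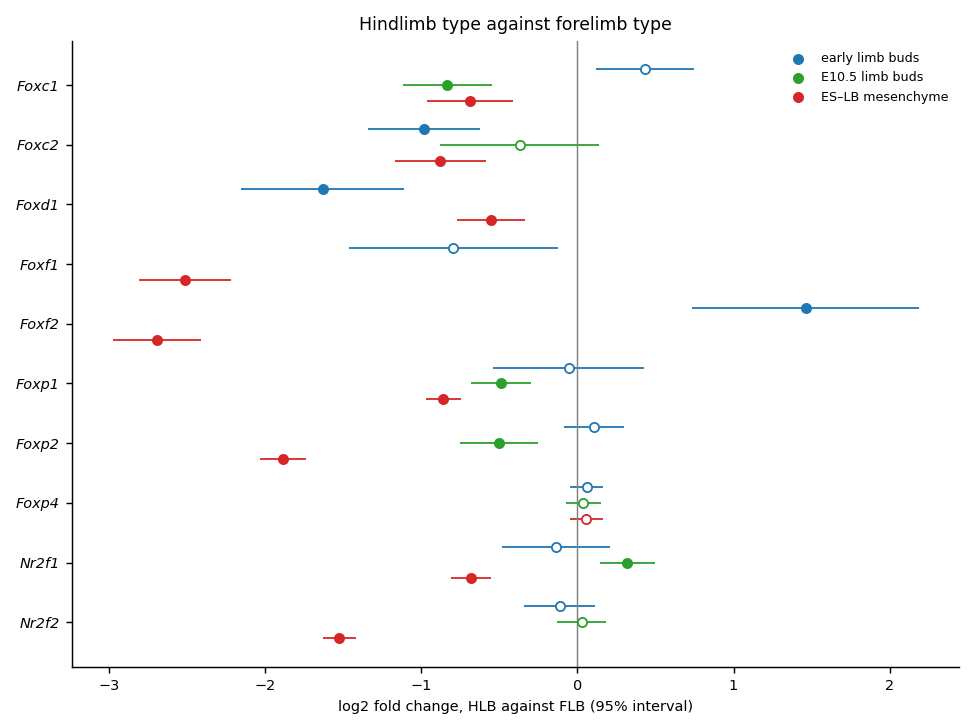
Log2 fold change of hindlimb against forelimb type for each gene, with lines for the 95% interval, in early limb buds (blue), E10.5 limb buds (green) and ES–LB mesenchyme (red). Filled points were called at an adjusted p below 0.05 and open points were not, and genes too low to be tested have no point. In ES–LB mesenchyme 9 of the 10 genes lie to the left of 0, and Foxf2 lies on opposite sides in culture and in the early buds.

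Between the stages, 5 of the 9 genes tested in FLB were called (43.8% of all genes), with Foxc1 and Foxp2 higher and Foxd1, Foxf1 and Nr2f2 lower at E10.5. The call of Foxd1 was lost without replicate 2 or 3 of the E10.5 FLB, with CPM as deposited (adjusted p = 0.0023) and with a pseudocount of 0.1 (0.0011). It was also lost with no filter on low values (0.0027) and in limma without its variance trend and robust setting (0.0047). With CPM as deposited Foxp4 was called higher at E10.5 (0.33). Without any 1 of the early FLB libraries, 7 genes could be tested and 3 were called, as Foxd1 and Foxf1 passed the filter through the early FLB alone. In HLB, with n = 2 at E10.5, 0 of 8 genes passed the limma threshold of 0.001 (5.02% of all genes). At a threshold of 0.05, 3 did (limma, adjusted p = 0.024 for Foxf2, 0.040 for Foxp2 and 0.0032 for Nr2f2), as did 3808 of the 12445 genes tested. Foxf2 passed the filter there through the early HLB alone. By the study's text the early FLB was younger than the early HLB, so the stages lie farther apart in FLB than in HLB. The early libraries were also deeper than those of E10.5, so that stage and depth cannot be told apart.

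ES–LB mesenchyme was higher than its limb bud for most of the genes. ES–FLB exceeded the early FLB in 9 of 10 genes (66.2% of all genes called, 3852 higher and 4846 lower). It exceeded the E10.5 FLB also in 9 of 10 (52.7%, 3333 higher and 3609 lower), with Foxp4 as the exception in both. For these 9 genes every ES–FLB library lay above all 11 limb bud libraries, and how many of all genes do so was not counted. ES–HLB exceeded the early HLB in 6 genes, the FoxC, FoxD and FoxF members and Foxp2, and was below it in Nr2f2 (60.6% called, 3507 higher and 4485 lower). It exceeded the E10.5 HLB in 6 genes, the FoxC, FoxD and FoxF members and Foxp1 (54.5% called, 3397 higher and 3615 lower). Foxd1, Foxf1 and Foxf2 passed the filter against the E10.5 buds through ES–LB mesenchyme alone. Against the early buds Foxf2 in FLB and Foxd1 in HLB likewise passed through ES–LB mesenchyme alone, and Foxf1 in HLB had 1 early library at the minimum of 1 CPM or more. Without any 1 of the ES–HLB libraries these 3 could not be tested against the E10.5 HLB, Foxc2 lost its call, and 2 calls were left. Without replicate 1 of the E10.5 HLB Foxc2 was 0.50 and not called. Against the early HLB, 4 calls were left without replicate 3 of ES–HLB, while Nr2f1 was called without replicate 1 and Foxp1 without replicate 2 of the early HLB. Foxf2 in ES–FLB against the early FLB missed the threshold without replicate 3 of the early FLB (adjusted p = 0.0011) or with a pseudocount of 0.1 (0.0021). Against the early HLB, limma without its variance trend and robust setting lost Foxf1 (adjusted p = 0.0018) and Nr2f2 (0.0067). The spread of all 26 libraries lost Foxf2 (0.0025). Against the E10.5 HLB, limma without the trend and robust setting lost Foxc1 (adjusted p = 0.0035) and Foxc2 (0.030). Foxc2 was also lost with a pseudocount of 0.1 (0.0017) or with the incomplete library kept (0.0012). For 4 genes all ES–HLB libraries lay above all limb bud libraries, again without a count over all genes. These comparisons share the ES–LB libraries and are not independent. For ES–FLB against the early FLB the median of the 10 genes was 1.93 (log2), and that of all genes -0.08. ES–HLB against the E10.5 HLB gave 0.85 and -0.02. The medians of the 10 genes include those that passed the filter through ES–LB mesenchyme alone. All 10 were chosen with earlier results of these data known, so the medians are given as a description.

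**Figure D5:**
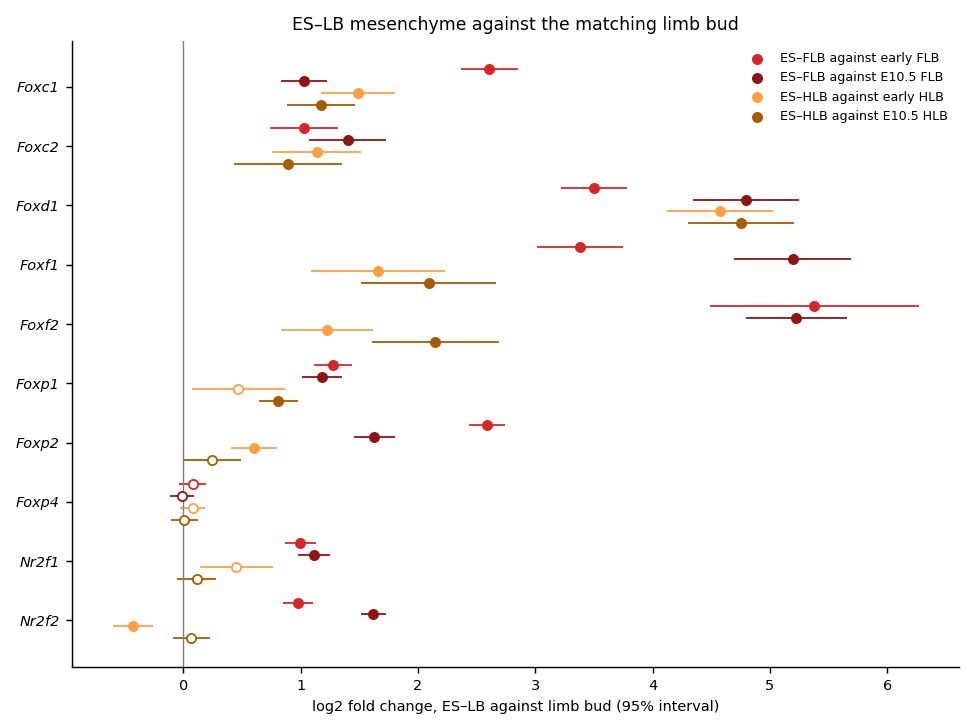
Log2 fold change of ES–LB mesenchyme against the limb bud of its own type, with lines for the 95% interval, for ES–FLB against early (red) and E10.5 (dark red) FLB and for ES–HLB against early (orange) and E10.5 (brown) HLB. Filled points were called at an adjusted p below 0.001 and open points were not. Foxd1 is far to the right in all 4 comparisons, the FoxF genes chiefly in ES–FLB, and Foxp4 lies near 0.

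Compared with the other embryonic tissues, the mean of both ES–LB types was below BA in 9 of 10 genes (72.0% of all genes called, 4697 higher and 5045 lower), with Foxc1 not called unless replicate 1 of BA was left out (-0.38, adjusted p = 0.017). It was above Ca in 7 genes and below it in Foxc2 (82.6% called), and Foxc1 was called higher than in Ca without replicate 3 of Ca, replicate 1 of ES–FLB or replicate 2 of ES–HLB. Against TB it was higher in Foxf1, Foxp2, Nr2f1 and Nr2f2 and lower in Foxc1, Foxc2, Foxd1 and Foxp4 (78.2% called). The mean of ES–FLB alone was above that of BA in Foxc1, Foxf1 and Foxf2, with overlapping libraries, and in Foxp2 and Nr2f2, with none. The call of Foxf1 below BA was lost without replicate 3 of BA (adjusted p = 0.056) or with a pseudocount of 0.1 (0.082), and that of Nr2f2 (-0.21) without replicate 2 or 3 of BA or replicate 2 of ES–HLB, or with CPM as deposited (0.10). Foxd1 passed the filter against Ca through ES–LB mesenchyme alone.

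Patterns over the 9 group means were compared by Pearson's r of log2(CPM + 0.5), given as a description, as the points share libraries and tissues. All 45 pairs of the 10 genes had a positive r, from 0.05 for Foxc2 with Nr2f2 to 0.91 for Foxf2 with Foxp1. Pairs of other genes were not counted in this way, and the 10 genes were chosen with earlier results of these data known. Among 7348 genes that varied by 1 or more, the gene most like Foxf1 was its neighbour Fendrr (0.97), and the gene most like both Foxf2 (0.95) and Foxp1 (0.94) was Foxl1. Nr2f2 was most like the overlapping B130024G19Rik (0.91). The nearest to Foxd1 were the neural genes Sox2 (0.93), Fabp7 (0.93) and Ina (0.92), to Foxc1 Asap3, Adgrv1 and Notch1 (0.95 to 0.96), to Foxc2 Irx2, Lrrc4 and Cobl (0.94 to 0.95), and to Nr2f1 P2rx3 (0.93) and AI606473 (0.89).

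Relatives and related pathways were counted in the same fits. Of the 36 other forkhead genes, 18 were tested between the ES–LB types, with 3 higher and 3 lower in ES–HLB and a median of -0.08 against 0.00 over all genes. Foxd2 fell by 0.99 (log2) and Foxh1 was higher by 1.30. Of the 10 other NR2 receptors 7 were tested, with Nr2f6 higher (0.25) and Rxrg (-0.89), Rxra (-0.35) and Nr2c2 (-0.17) lower in ES–HLB (median -0.12). Among 10 Hedgehog response genes 5 were higher and 4 lower in ES–HLB (median 0.07). Their sums overlapped, at 1295 to 1385 CPM in ES–FLB and 1295 to 1357 in ES–HLB, and none of the 5 higher genes is named here. Gli1, a transcriptional effector and target of the pathway, was among the lower ones, with 143 ± 5.18 CPM in ES–FLB and 65.5 ± 6.69 in ES–HLB against 49.3 ± 1.39 in the E10.5 FLB, as were Ptch1 (-1.09) and Hhip (-1.13). Of 15 retinoic acid genes 4 were higher and 6 lower among 13 tested (median -0.25). Dhrs3 (2.70) and Cyp26a1 (2.46), which limit retinoic acid, were higher in ES–HLB, and Aldh1a2 (-2.43), which makes it, was lower, as was Aldh1a3 (-0.95).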

How the data were processed

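RNA-seq of 27 libraries in 9 groups was analysed. The authors made stranded mRNA libraries, mapped the reads with HISAT2 2.0.4 (mm10), estimated counts with Cuffdiff (Cufflinks 2.1.1 in the submitters' processing notes) and used edgeR 3.16.2. The deposited table holds CPM, read counts scaled to each library's total, with 1 value per gene and library. The strand setting of the counting is not given in the sources used here. The 10 genes and all gene lists were chosen with earlier results of these data known.

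The CPM of 26 libraries were scaled with an unweighted TMM (30% of log ratios and 5% of intensities trimmed), and log2(CPM + 0.5) was tested with limma 3.58.1 (trend, robust) in R 4.3.3 for those genes that reached 1 CPM in 3 or more libraries of the comparison. Fold changes are on this scale and understate those of low genes. Only the groups compared entered a fit, except where BA, Ca or TB was compared, when the 26 libraries shared 1 fit. The Benjamini-Hochberg adjustment ran over every gene tested. The scripts were tested on simulated data. Python 3.11.15 gave the levels and ratios (pandas 2.3.3, scipy 1.17.1, numpy 2.4.6) and drew the plots (matplotlib 3.10.9).

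Depth came from the spacing of low values, which is the worth of 1 read. As some values were fractional, no count test was run. Ratios of low genes use these reads, with exact intervals that cover counting error only, as do levels of 3 reads. According to the methods, tissue came from 3 embryos and ES–LB cells from 96 sorted aggregates. The labels do not say that libraries of a group are separate animals or cultures, so p-values measure the spread between these libraries. Exon lengths, overlaps and gene positions are from GENCODE vM21, and promoters and distances from RefSeq GRCm38.p6. In RefSeq Foxc1 ends at 31810635 and Foxd1 at 98356705, before their ends in GENCODE, so their levels per kilobase depend on the annotation. Genes other than the 10 were named by rule: the 3 genes most like each in pattern (group mean of 4 CPM or more somewhere, range of 1 or more), up to 4 called genes per list with the largest change, and neighbours within 200 kb. Some genes that this rule names are not reported here. Alternatives were CPM as deposited, other pseudocounts and filters, and limma with its trend and robust settings both switched off. Others were another call threshold, other libraries in the fit, a replicate block, and each library left out.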

Additional observations from a re-analysis of the deposited data

Results flagged for a closer look

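The hindlimb minus forelimb difference in ES–LB mesenchyme differed from that in the early limb buds (interaction, limma) for 8 of the 10 genes, by log2 values of -1.12 for Foxc1, 1.08 for Foxd1, -1.72 for Foxf1, -4.16 for Foxf2, -0.80 for Foxp1, -1.99 for Foxp2, -0.54 for Nr2f1 and -1.41 for Nr2f2. For Foxf2 the early HLB was above the early FLB while ES–HLB was below ES–FLB. The Foxf2 call between the early buds was lost with a pseudocount of 0.1 (limma, adjusted p = 0.071). The interaction of Foxd1 was 0.25 and not called with a pseudocount of 2. With the E10.5 buds as the embryonic pair Foxc1 was 0.15 and Foxd1 -0.040, and neither was called. The calls of Foxp1 and Nr2f1 were lost without some of the libraries, as given above.

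The E10.5 HLB library that was left out held signal above 3 reads for 4 of the 10 genes. It listed Foxc1 at 15.3 CPM, Foxf2 at 1.37, Foxp4 at 239 and Nr2f1 at 78.9, as deposited, where the other E10.5 HLB libraries had 9.56 to 12.4, 0.523 to 0.885, 149 to 157 and 48.3 to 52.3. Its values are scaled to a total over fewer chromosomes than in the other libraries. No group had the 4 libraries that a check for single outlying libraries needs.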

How the results depend on the processing

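Of 2450 single-gene values under the alternatives, 2318 kept their direction and their side of the threshold, 74 lost a call, 27 gained one and 31 changed direction, 29 of these for differences that had not been called. Counts of genes called stayed within 1.5 times in 240 of 265 alternatives and counts among the 10 genes in 246 of 265, and the cause of the others was not tested unless given. edgeR and DESeq2 on whole reads were not run, since whole reads could not be claimed for all values.

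With the other threshold (0.001 in place of 0.05, or the reverse), genes called were 1895 in BA, 3616 in TB, 396 between early limb types (1 of the 10 genes), 1313 between E10.5 limb types (2), 1451 between ES–LB types, 927 in the interaction (4), 8423 between FLB stages and 3808 between HLB stages (3). A filter of 5 CPM left 1 of the 10 genes called between early limb types and 3 between FLB stages, as fewer genes were tested. limma without trend and robust setting called 853 genes (1 of the 10) between E10.5 limb types, and 3001 (3) and 9 between stages of FLB and HLB. It called 3877 and 3048 in ES–FLB and ES–HLB against E10.5. The HLB stage count, 625, was 153 with no filter, 1715 (1 of the 10) with all libraries in 1 model and 1028 with the incomplete library kept.

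Leaving out each library gave 5 to 8 of the 10 genes in TB, 1381 to 2325 genes between early and 2168 to 2879 between E10.5 limb types, 3 to 5 of the 10 between FLB stages, 7 to 1397 genes and 0 to 1 of the 10 between HLB stages, and 4 to 8 and 2 to 6 of the 10 in ES–HLB against the early and E10.5 HLB.

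The replicate numbers did not pair the samples (correlations of deviations -0.0869 to 0.0997). With the number as a replicate block, 1379 genes and 1 of the 10, Nr2f2, were called between HLB stages, Nr2f1 was gained in ES–HLB against the early HLB and Foxc1 in ES–LB mesenchyme against Ca, and Nr2f2 between E10.5 limb types was -0.0057. No other call changed with the block.

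CPM as deposited moved the median of all genes by 0.23 between FLB stages, 0.31 and 0.25 in ES–FLB and ES–HLB against the early buds, 0.15 in ES–HLB against E10.5 and 0.18 against Ca. The percentage of calls that were higher went from 45.9 to 63.2 in BA, 47.5 to 59.4 in TB, 44.9 to 61.8 and 58.3 to 31.1 between early and E10.5 limb types, 56.1 to 44.5 in the interaction, 36.1 to 67.0 and 30.9 to 49.9 between FLB and HLB stages, 44.3 to 63.4 and 43.9 to 61.7 in ES–FLB and ES–HLB against early, and 48.4 to 61.6 in ES–HLB against E10.5. It turned Foxp4 (-0.048) and Nr2f2 (-0.057) between E10.5 limb types, Nr2f1 between FLB stages (0.12) and Foxp4 in ES–FLB against E10.5 (0.058).

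Left-out libraries turned the direction of 11 differences, each not called, which ranged from -0.23 to 0.12 for Foxp1 and -0.29 to 0.011 for Nr2f1 between early limb types, -0.0068 to 0.062 for Nr2f2 and -0.76 to 0.023 for Foxc2 between E10.5 limb types, -0.025 to 0.22 for Foxc2 and -0.038 to 0.058 for Foxp4 in the interaction, -0.013 to 0.20 for Foxp1 between FLB stages, -0.15 to 0.64 for Foxc2 between HLB stages, -0.072 to 0.025 and -0.015 to 0.035 for Foxp4 in ES–FLB and ES–HLB against E10.5, and -0.026 to 0.10 for Foxp1 against Ca. A pseudocount of 2 turned Foxc2 in the interaction (-0.016). With the E10.5 buds as the pair, the interaction was 0.15 for Foxc1, -0.51 for Foxc2, -0.040 for Foxd1 and 0.021 for Foxp4. The log2 ratio of Foxf1 to Foxf2 in the E10.5 FLB, -0.56, was 1.585 without a pseudocount, as 1 library alone lists both above 0.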
